A study of Mus musculus with 7 samples.

Results

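Outer segment disc and retinoid genes were followed in bulk RNA-seq of whole mouse retina at embryonic day 16 (E16). The set held 8 genes, *Rom1*, *Prph2*, *Prom1*, *Cdhr1*, *Abca4*, *Rbp3*, *Rdh8* and *Rdh12*, each taken by its name from the deposited table of 48440 genes, where each matched 1 row. The 7 libraries were pools of 4 to 6 retinas, 36 retinas in all. The WT library carried *Chx10Cre* and unfloxed *Ptbp1* (n = 1, 6 retinas). The Het libraries were *Chx10-Cre;Ptbp1lox/WT* (n = 3, of 5, 5 and 6 retinas) and the KO libraries *Chx10-Cre;Ptbp1lox/lox* (n = 3, of 4, 4 and 6 retinas). All 7 libraries thus carried the Cre, which is driven by *Chx10* in retinal progenitors, and the Het libraries had lost 1 copy of *Ptbp1*. How many embryos or litters stood behind the pools is not given in the sources used here, so the p-values measure the spread between these pools. Depth was 120593979 to 171117305 counts per library. Because WT was a single library, tests were made between KO and Het, and WT is given as a value.

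The outer segment of a photoreceptor is a modified cilium filled with membrane discs, and it is built after the cell has left the cell cycle. Tetraspanins hold the disc rim in its hairpin shape, and a prominin and a photoreceptor cadherin act where new discs form at the base. Light turns 11-cis-retinal into all-trans-retinal, which is cleared from the disc, reduced to retinol and carried to the retinal pigment epithelium for recycling. In the mouse most rods are born around birth, so the E16 retina holds mainly progenitors and early-born neurons, with cones and the earliest rods still without outer segments.

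The labels were checked on *Ptbp1*, the deleted RNA-binding protein. Its level came to 381 CPM in WT, 210, 219 and 234 CPM in Het1, Het2 and Het3, and 27.9, 6.04 and 46.9 CPM in KO1, KO2 and KO3, where CPM is the library-scaled count after edgeR's TMM correction. The KO libraries lay below every Het library, in the order the genotypes give. Retinal progenitor markers were abundant in every library. The summed level of 12 such genes ran from 7132 to 7512 CPM, with *Ccnd1*, a cyclin, the most abundant.

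Het1 stood apart from the other libraries in markers of tissue outside the neural retina. A list of 10 markers stood for pigmented cells, of the retinal pigment epithelium or melanocytes. Their summed level was 550 CPM in Het1 against 38.0 CPM in WT. It was 35.5 and 70.0 CPM in Het2 and Het3, and 29.3, 23.2 and 66.4 CPM in KO1, KO2 and KO3. Of these 10 genes, 9 were highest in Het1, and the most abundant was *Pmel*, a melanosome protein, at 321 CPM there. *Rpe65*, the retinoid isomerase that defines the pigment epithelium, had 0 counts in WT, in all 3 Het libraries and in KO1, 2 counts in KO2 and 1 in KO3. It was too low to be tested and was named after its values were seen. Summed skeletal muscle markers stood at 326 CPM in Het1 and between 8.84 and 11.6 CPM in the other 6 libraries, with *Myh3*, an embryonic myosin, the most abundant. Lens markers varied across both groups, with 40.5, 79.6 and 110 CPM in Het1, Het2 and Het3 and 4.52, 9.67 and 66.0 CPM in KO1, KO2 and KO3. Their most abundant gene was the crystallin *Cryaa*.

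In the KO retinas *Rom1* and *Rbp3* rose, and the other 6 genes did not pass the test. A gene was called changed at an adjusted p below 0.05 in edgeR's quasi-likelihood test and a change of more than 1.2-fold in either direction. By this rule 2 of 8 genes were called, both higher, where 7.22% of the 20019 genes tested were called, 4.01% higher and 3.21% lower. At an unadjusted p below 0.05 there were 5 of 8, beside 29.7% of genes tested, and DESeq2 called 4 of 8, beside 7.04%. All 8 genes passed the filter on low counts. Their median log2 fold change was 0.38, beside -0.0047 over all genes tested, and 0.08 when KO1 was left out. KO libraries lay above every Het library for 4 of the 8 genes (18.6% of all genes tested) and below every Het library for 2 (17.7%). KO1 was the highest of the 7 libraries for 5 of the 8 genes, where this held for 18.7% of genes tested. Without Het2, Het3 or KO2 none of the 8 was called, where 1.93%, 2.49% and 3.06% of all genes were. Without Het1 there were 2 (6.23% of genes), without KO1 1 (6.12%) and without KO3 4 (8.39%). When edgeR's glmTreat tested against the fold limit itself, 0 of 8 and 1.08% of genes passed. In a bulk sample, more cells of a type and more RNA per cell cannot be told apart.

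**Figure D1:**
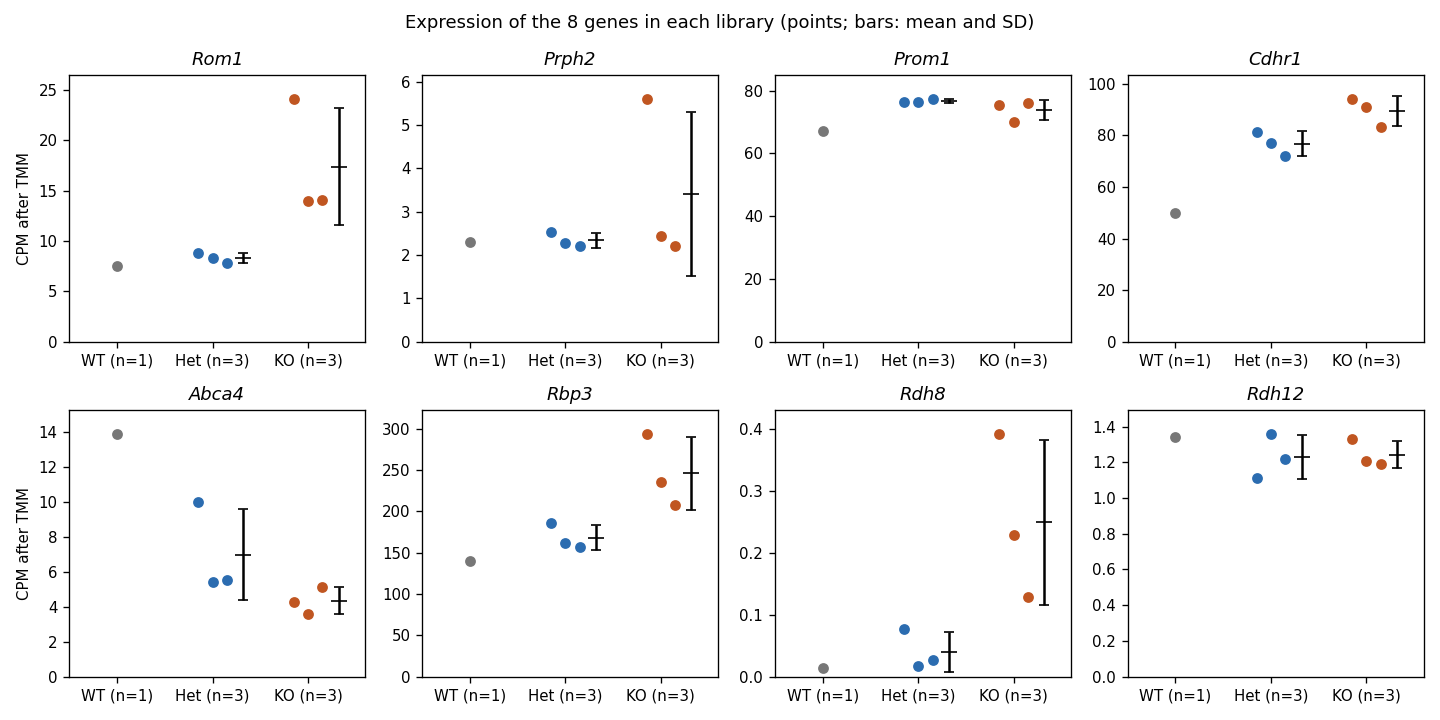
Level of each of the 8 genes in CPM after TMM scaling (vertical axes, each starting at 0) in the WT, Het and KO libraries. Points are libraries in the order of their replicate numbers, and bars are the mean and SD of the 3 Het or KO libraries. For *Rom1* and *Rbp3* all KO points lie above all Het points, while for *Prph2* only KO1 does.

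*Rom1* and *Prph2* encode the paired tetraspanins of the disc rim. *Rom1* (ENSMUSG00000071648.3, GRCm38 chr19:8927391-8929356, minus strand) was at 7.53 CPM in WT, at 8.85, 8.32 and 7.79 CPM in Het1, Het2 and Het3, and at 24.1, 14.0 and 14.1 CPM in KO1, KO2 and KO3. The lowest KO library exceeded the highest Het library, and KO1 was 1.72-fold the mean of KO2 and KO3. The mean went from 8.32 ± 0.532 CPM in Het to 17.4 ± 5.82 CPM in KO (SD, n = 3 each), or 209% of Het. This was a log2 fold change of 1.07 (SE 0.219, edgeR adjusted p = 0.0298). Without KO1 it was 0.76 and the call held. The call was lost without Het1, Het2, Het3 or KO2, at edgeR adjusted p values of 0.0555, 0.108, 0.108 and 0.0546, with the log2 fold change between 1.02 and 1.20.

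*Prph2* is the tetraspanin gene whose product pairs with that of *Rom1* at the rim. It lies at chr17:46910459-46924933 on the plus strand (ENSMUSG00000023978.5). It stood at 2.31 CPM in WT, 2.53, 2.29 and 2.20 CPM in Het1, Het2 and Het3, and 5.60, 2.43 and 2.20 CPM in KO1, KO2 and KO3. The groups overlapped, and only KO1 stood above the Het libraries, at 2.42-fold the mean of KO2 and KO3. The log2 fold change of 0.54 (SE 0.357, edgeR adjusted p = 0.348) became -0.02 without KO1. The *Prph2* mean was 146% of Het, against 209% for *Rom1*, and the difference between the pair was not tested.

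*Prom1* and *Cdhr1* act where discs are formed. *Prom1*, a prominin, is a membrane protein of curved protrusions that is also made outside photoreceptors (ENSMUSG00000029086.15, chr5:43993620-44102032, minus strand). It was at 67.2 CPM in WT, 76.5, 76.3 and 77.3 CPM in Het1, Het2 and Het3, and 75.4, 70.1 and 76.0 CPM in KO1, KO2 and KO3. The KO libraries lay just below the Het libraries, and WT was the lowest of the 7. Its log2 fold change was -0.06 (SE 0.0366, edgeR adjusted p = 0.351), the smallest standard error of the 8 genes. The counting may or may not have used strand, and 424 of its exon bases (5.91%) are shared with the antisense gene *Gm16401*, which was at 2.84 CPM in Het and 2.81 CPM in KO.

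*Cdhr1*, the photoreceptor cadherin, lies at chr14:37077857-37098347 on the minus strand (ENSMUSG00000021803.9). It reached 49.8 CPM in WT, 81.5, 77.1 and 71.9 CPM in Het1, Het2 and Het3, and 94.1, 91.1 and 83.2 CPM in KO1, KO2 and KO3. All 3 KO libraries were above all Het libraries, and the Het mean was itself 154% of WT. From Het to KO the log2 fold change was 0.22 (SE 0.0619, edgeR adjusted p = 0.0687). Among the alternatives tried it passed the call only without KO3, at a log2 fold change of 0.27 and an edgeR adjusted p of 0.0367.

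*Abca4* is the disc rim transporter that moves retinal conjugates out of the disc interior (ENSMUSG00000028125.14, chr3:122044443-122180123, plus strand). It was the only gene of the 8 with its highest level in WT, at 13.9 CPM. Het1, Het2 and Het3 were at 9.97, 5.40 and 5.52 CPM, and KO1, KO2 and KO3 at 4.29, 3.58 and 5.13 CPM. Each KO library lay below each Het library, with Het1 far above Het2 and Het3. The means were 6.96 ± 2.61 CPM in Het and 4.33 ± 0.775 CPM in KO (SD, n = 3 each), or 50.1% and 31.1% of WT. The log2 fold change of -0.69 (SE 0.267, edgeR adjusted p = 0.145) was -0.33 without Het1. DESeq2 called it at an adjusted p of 0.0143. The pigmented cell and muscle markers were also highest in Het1, and their part in the *Abca4* value was not tested.

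*Rbp3*, also known as IRBP, is the secreted carrier that shuttles retinoids across the matrix between photoreceptors and the pigment epithelium (ENSMUSG00000041534.8, chr14:33954003-33964216, plus strand). It stood at 140 CPM in WT, 186, 162 and 157 CPM in Het1, Het2 and Het3, and 294, 236 and 208 CPM in KO1, KO2 and KO3. No KO library reached down to the Het range, and WT was the lowest of the 7. The mean rose from 168 ± 15.4 CPM to 246 ± 44.0 CPM (SD, n = 3 each). On the log2 scale the change was 0.55 (SE 0.131, edgeR adjusted p = 0.0443). The call was lost without Het2, Het3, KO1 or KO2, at edgeR adjusted p values of 0.143, 0.140, 0.0519 and 0.111, with the log2 fold change between 0.40 and 0.58.

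*Rdh8* and *Rdh12* encode retinol dehydrogenases that reduce all-trans-retinal, the former in the outer segment and the latter in the inner segment. *Rdh8* (ENSMUSG00000053773.4, chr9:20818503-20826117, plus strand) was close to the limit of detection, with 2 counts in WT, 13, 2 and 4 in Het1, Het2 and Het3, and 52, 30 and 17 in KO1, KO2 and KO3. All KO libraries were above all Het libraries, while WT and 1 of 3 Het libraries were at or below a floor of 3 counts. Its mean level was 0.0399 ± 0.0321 CPM in Het and 0.249 ± 0.134 CPM in KO (SD, n = 3 each). The log2 fold change of 2.57 (SE 0.656) was the largest of the 8 genes but did not pass, at an edgeR adjusted p of 0.0533, and with Het libraries so near the floor its size is uncertain. It passed without Het1 (log2 fold change 3.45, edgeR adjusted p = 0.0392), without KO3 (2.88, adjusted p = 0.0432) and in DESeq2 (2.61, adjusted p = 0.0123). Without KO1 it was 2.08 (edgeR adjusted p = 0.115).

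*Rdh12* (ENSMUSG00000021123.12, chr12:79208914-79222665, plus strand) was at 1.34 CPM in WT, 1.11, 1.36 and 1.22 CPM in Het1, Het2 and Het3, and 1.33, 1.21 and 1.19 CPM in KO1, KO2 and KO3. The Het range of 1.11 to 1.36 CPM held the WT library and all KO libraries. The log2 fold change was 0.02 (SE 0.134, edgeR adjusted p = 0.942), and it took either sign when single libraries were left out.

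**Figure D2:**
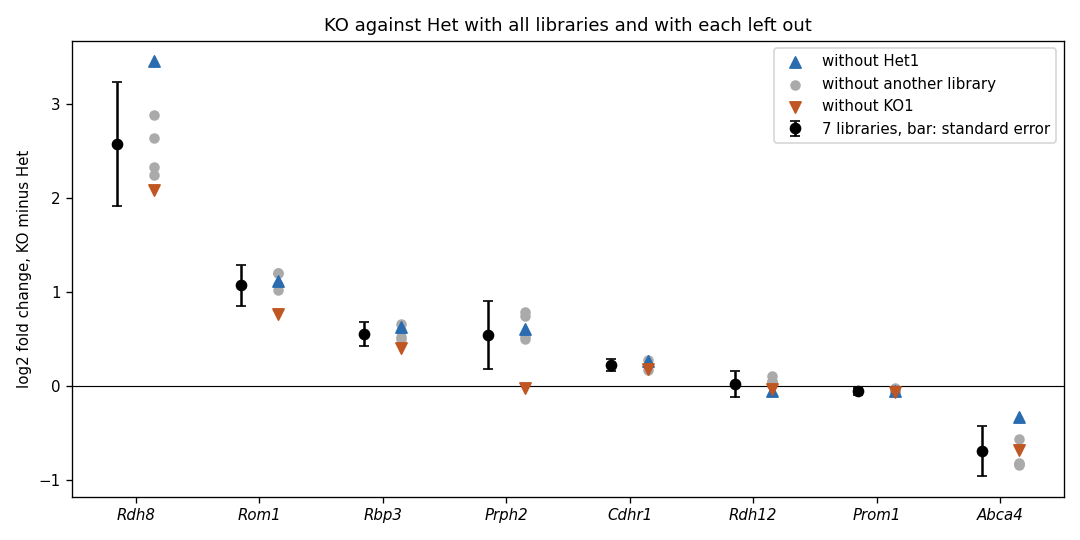
Log2 fold change of KO over Het for each of the 8 genes with all 7 libraries (black points, bars are the standard error) and with each Het or KO library left out in turn (blue triangles without Het1, orange triangles without KO1, grey points without another). *Rom1*, *Rbp3*, *Cdhr1* and *Rdh8* stay above 0 in every fit shown, *Abca4* and *Prom1* stay below 0, and *Prph2* reaches -0.02 without KO1.

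WT lay below every Het library for 5 of the 8 genes, *Rom1*, *Prom1*, *Cdhr1*, *Rbp3* and *Rdh8*, where this held for 25.6% of genes tested. It lay above every Het library for *Abca4*, where this held for 25.8%. With 1 WT library the spread of WT itself is unknown, and these differences were not tested. The same Het libraries serve this reading and the KO comparison.

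Levels of different genes were compared per kilobase of exon, as CPM per kb. In Het the order was *Rbp3* at 31.7 ± 2.91, *Cdhr1* at 17.7 ± 1.11, *Prom1* at 10.7 ± 0.0731 and *Rom1* at 5.48 ± 0.351 CPM per kb (SD, n = 3). Then came *Prph2* at 0.780 ± 0.0568, *Abca4* at 0.579 ± 0.217, *Rdh12* at 0.414 ± 0.0427 and *Rdh8* at 0.0284 ± 0.0228 CPM per kb. RNA of *Rbp3*, *Cdhr1* and *Prom1* thus stood far above that of *Prph2*, *Abca4*, *Rdh12* and *Rdh8*, with the rim gene *Rom1* between them. The ranges of *Prph2* and *Abca4* overlapped across the Het libraries, as did those of *Abca4* and *Rdh12*. In KO, *Rom1* at 11.5 ± 3.84 CPM per kb stood level with *Prom1* at 10.3 ± 0.449 CPM per kb, with ranges of 9.22 to 15.9 and 9.77 to 10.6. In WT, *Abca4* at 1.16 CPM per kb stood above *Prph2* at 0.768 CPM per kb.

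**Figure D3:**
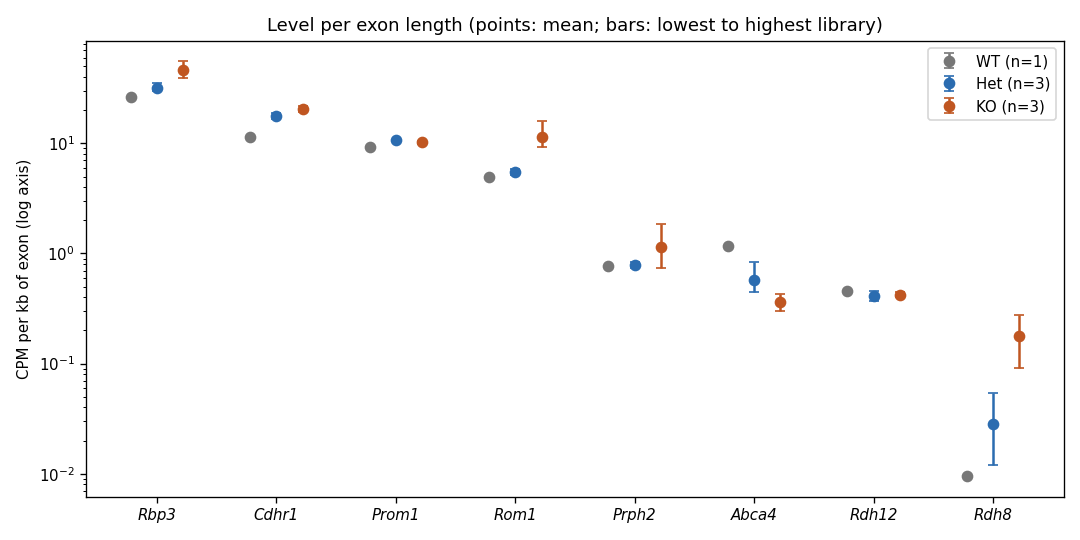
Level of the 8 genes per kilobase of exon (CPM per kb, log axis) in WT, Het and KO. Points are means and bars run from the lowest to the highest library. *Rbp3* leads in every genotype, *Rdh8* is last, and *Rom1* and *Prom1* overlap in KO.

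The promoters of *Rbp3*, *Abca4* and *Rom1* are shown because the first and the third belong to the genes that rose, and the second to the gene that was highest in WT. Sequences are from RefSeq (GRCm38.p6), which matched 8 of 8 genes with 9 promoters, and run 5′ to 3′ over the 250 bases before the start. Capitals mark TAATCC, searched on both strands (GGATTA on the other), the core that the photoreceptor factors CRX and OTX2 bind.
*Rbp3* (chr14:33953753-33954002, plus strand): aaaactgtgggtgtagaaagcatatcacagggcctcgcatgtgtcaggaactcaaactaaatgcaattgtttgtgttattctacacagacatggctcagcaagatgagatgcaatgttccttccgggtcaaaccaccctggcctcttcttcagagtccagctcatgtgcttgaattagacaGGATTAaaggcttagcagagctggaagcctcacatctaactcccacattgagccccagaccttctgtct
*Abca4* (chr3:122044210-122044459, plus strand): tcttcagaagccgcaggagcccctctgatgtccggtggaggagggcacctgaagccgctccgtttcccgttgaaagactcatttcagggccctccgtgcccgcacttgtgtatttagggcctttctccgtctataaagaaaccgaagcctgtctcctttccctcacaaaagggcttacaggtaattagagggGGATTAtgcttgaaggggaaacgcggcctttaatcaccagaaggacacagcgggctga
*Rom1* (chr19:8929357-8929606, minus strand): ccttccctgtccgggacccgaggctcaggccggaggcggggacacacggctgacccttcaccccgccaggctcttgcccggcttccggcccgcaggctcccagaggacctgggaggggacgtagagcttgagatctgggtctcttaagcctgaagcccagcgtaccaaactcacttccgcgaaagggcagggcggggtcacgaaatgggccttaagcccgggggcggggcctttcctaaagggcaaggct
The letters were found in *Rbp3*, with the first base 69 before the start, and in *Abca4*, 58 before the start, and in no other promoter of the 8 genes. They occur in 6.25% of the 32851 promoters in the same table. TGCTGA, a core bound by the rod factor NRL (TCAGCA on the other strand), was found in the *Rbp3* and *Rdh12* promoters and in 16.1% of all promoters. A match is a description of the sequence, and *Rom1*, which rose, held neither core in this window.

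None of the 4 tested genes nearest to *Rom1* was called. *B3gat3* ends 155 bases away and *Eml3* begins 196 bases away, and their log2 fold changes were -0.07 (edgeR adjusted p = 0.241) and -0.02 (adjusted p = 0.792). Of the 100 tested genes around *Rom1*, 50 on each side, 1 was called, where 7.22% of all genes were. The same count was 18 around *Cdhr1* (12 higher) and 16 around *Rbp3* (10 higher), whose windows on chromosome 14 overlap, and 15 around *Prph2* (12 lower). It was 6 around *Rdh12* and 4 each around *Prom1*, *Abca4* and *Rdh8*. The neighbours of *Cdhr1*, *Lrit2* and *Lrit1*, which encode leucine-rich repeat proteins of the retina, rose from 2.45 to 5.33 CPM (log2 fold change 1.12, SE 0.213, edgeR adjusted p = 0.0243) and from 5.22 to 10.6 CPM (1.02, SE 0.210, adjusted p = 0.0302). Beyond them lies *Rgr*, an opsin that acts in retinal recycling, which fell. *Zfp488*, a zinc finger gene 2854 bases from *Rbp3*, rose from 20.5 to 26.8 CPM (0.39, edgeR adjusted p = 0.0181). *Gm626*, the other called gene near *Rbp3*, rose from 1.47 to 2.43 CPM (0.73, edgeR adjusted p = 0.0185). *Ubr2*, a ubiquitin ligase gene 3362 bases from *Prph2*, fell from 86.0 to 64.6 CPM (-0.41, edgeR adjusted p = 0.00498), and *Gltscr1l*, on the other side, also fell (-0.30, adjusted p = 0.00579). *Rdh11*, a dehydrogenase related to *Rdh12* and 16621 bases from it, was at 58.1 CPM in Het and 67.3 CPM in KO (0.21, edgeR adjusted p = 0.0857), while *Zfyve26*, 9681 bases away on the other side, rose from 22.7 to 28.6 CPM (0.33, adjusted p = 0.0391).

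**Figure D4:**
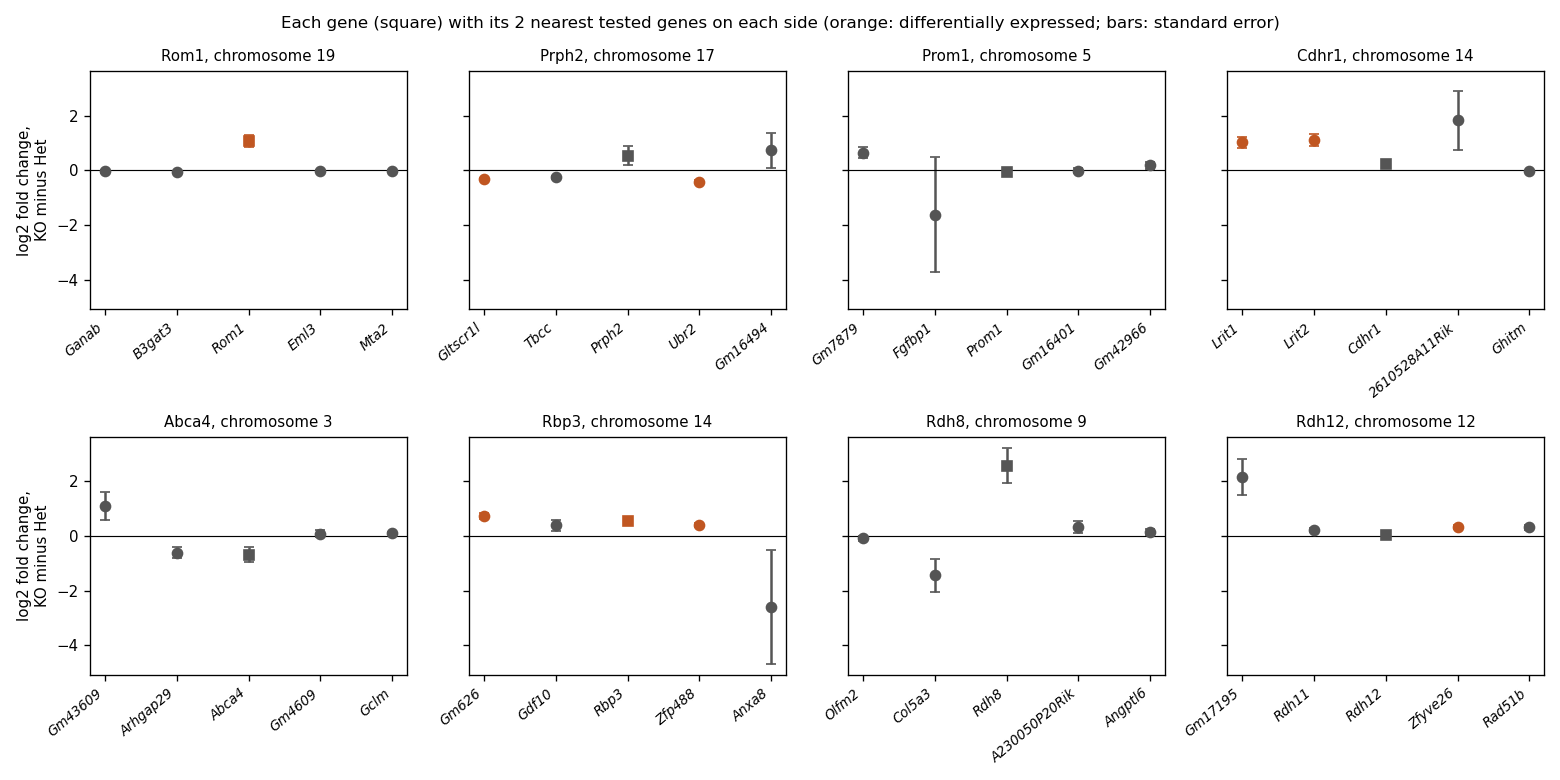
Log2 fold change of KO over Het for each of the 8 genes (squares) and the 2 nearest tested genes on either side (circles), in chromosome order. Bars are standard errors and orange marks called genes. *Rom1* stands alone among its neighbours, while *Lrit1* and *Lrit2* beside *Cdhr1* are called.

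The genes whose levels ran most like those of each member were found from the mean absolute difference of centred log2(CPM + 0.5) over the 7 libraries, among 13743 genes. For *Rom1* they were *Lrit2* (0.0718), *Kcna5* (0.0847) and *Adamts15* (0.0908), all called higher in KO. For *Rbp3* they were *Hpca* (0.0435), *Tagln2* (0.0484) and *Heyl* (0.0569), again all called higher. Likeness was measured over the same 7 libraries that gave the calls. A shared call therefore follows from how these genes were picked and is no separate result. *Abca4* had no gene as near, with *Ccdc141* (0.181), *Cabp5* (0.251) and *Anxa6* (0.269). For *Prph2* the nearest was *Ttyh1* (0.121), for *Cdhr1* *Ccdc138* (0.0561), for *Prom1* *Aaed1* (0.0168), for *Rdh12* *Toe1* (0.0170) and for *Rdh8* *Gfra4* (0.0328). At the level of *Rdh8* the 0.5 added flattens the differences, so a small value there says little.

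Other outer segment genes were listed together with genes of the matrix around photoreceptors and of photoreceptor membranes. They were mostly higher in KO, with a positive log2 fold change for 14 of the 19 tested (20 were listed). Of all 20019 genes 9819 had one. Of the 19 genes 6 rose and 1 fell, where 4.01% of all genes were called higher and 3.21% lower. Their median log2 fold change was 0.40, or 0.27 without KO1. Only 1 was called without Het2 (1.93% of all genes) and 3 without Het3 (2.49%). *Rp1*, an axonemal protein that aligns the discs, went from 2.25 ± 0.763 to 9.56 ± 2.41 CPM (SD, n = 3 each), at a log2 fold change of 2.09 (SE 0.284, edgeR adjusted p = 0.0105). *Tulp1*, which serves protein transport to the outer segment, went from 21.5 ± 1.83 to 39.4 ± 4.35 CPM (0.88, SE 0.0942, adjusted p = 0.00646). *Nxnl2*, a thioredoxin-like protein, went from 2.10 ± 0.252 to 3.80 ± 0.395 CPM (0.85, SE 0.135, adjusted p = 0.0153). The gene that fell was *Impg2*, a proteoglycan of the matrix that also holds *Rbp3*, from 77.6 ± 8.03 to 43.7 ± 6.89 CPM (-0.83, SE 0.124, adjusted p = 0.0131). It was named after its values were seen, and its WT level was 43.5 CPM. Without Het2 or without KO2 no gene of this list was called lower. *Crb1*, the most abundant of the list and a polarity protein, was at 157 ± 2.82 and 180 ± 9.10 CPM, with a log2 fold change of 0.19 (adjusted p = 0.0349), under the fold limit.

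Of the other retinoid genes 25 of 27 listed were tested, and 7 had a positive log2 fold change, or 12 of 25 without Het1. By edgeR 0 of the 25 rose and 3 fell, where 4.01% of all genes were called higher and 3.21% lower. At an unadjusted p below 0.05 there were 2 higher and 7 lower, beside 29.7% of all genes in either direction. DESeq2 called 1 higher and 4 lower, beside 7.04% of all genes. The 25 genes had a median log2 fold change of -0.19. The median was -0.06 without Het1, where 2 fell and 1 rose (6.23% of all genes were called). The gene that rose was *Rlbp1*, a carrier of 11-cis-retinoids (0.99, edgeR adjusted p = 0.0361), named after its values were seen. Without Het2 or without Het3, 1 was called (1.93% and 2.49% of all genes), and without KO3, 1 rose and 4 fell (8.39% of all genes were called). *Stra6*, the receptor that takes up retinol, fell from 29.3 ± 10.3 to 10.9 ± 3.55 CPM (-1.43, SE 0.311, edgeR adjusted p = 0.0349), a call that was lost without Het1 (-1.12, adjusted p = 0.0549) and without KO1 (-1.26, adjusted p = 0.0786). *Rgr* fell from 1.98 ± 0.177 to 0.805 ± 0.114 CPM (-1.30, SE 0.155, adjusted p = 0.00757). *Crabp2*, a cellular carrier of retinoic acid, fell from 110 ± 6.58 to 83.3 ± 4.37 CPM (-0.40, SE 0.0566, adjusted p = 0.0120). The most abundant, *Aldh1a1*, which makes retinoic acid, was at 240 ± 89.9 and 148 ± 117 CPM and was not called (adjusted p = 0.437). Of the 25 tested genes of this list 13 were highest in Het1, where this held for 14.8% of all genes tested. Het1 was also the library with the highest pigmented cell and muscle markers, and the part of such tissue in the list's values was not tested.

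Relatives of the 8 genes were also read. Of 8 listed, 7 were tested and 1 was called, beside 7.22% of all genes. It was *Abca3*, a lipid transporter of the *Abca4* family, which fell from 95.5 ± 1.03 to 71.2 ± 4.52 CPM (-0.42, SE 0.0479, edgeR adjusted p = 0.00688). The other *Abca4* relatives were not called, with log2 fold changes of 0.36 for *Abca1*, -0.02 for *Abca2* and -0.20 for *Abca7*. Nor were *Cdhr2* (0.20) and *Hsd17b1* (0.97), an enzyme related to *Rdh8*. *Prom2*, the other prominin, was at 0.695 CPM in Het1 against 0.109 and 0.0725 CPM in Het2 and Het3 and 0.136, 0.106 and 0.150 CPM in KO1, KO2 and KO3. Its log2 fold change of -1.17, not called, turned to 0.53 without Het1, and the median of the list moved from -0.02 to 0.27.

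Among 16 photoreceptor regulators 8 rose and 0 fell (0 also at an unadjusted p below 0.05 and by DESeq2), where 4.01% of all genes were called higher and 3.21% lower. Their median log2 fold change was 0.26, and without Het2 3 were called, beside 1.93% of all genes. The rod factors *Nr2e3* (3.34, SE 0.415, edgeR adjusted p = 0.00831) and *Nrl* (1.41, SE 0.202, adjusted p = 0.0120) were among them, as was *Samd7* (2.79, SE 0.255, adjusted p = 0.00412), a photoreceptor repressor. *Crx*, named after its values were seen because its core letters stand in the *Rbp3* and *Abca4* promoters, was at 159 ± 9.59 CPM in Het and 182 ± 14.9 CPM in KO and was not called (0.20, adjusted p = 0.116). *Rorb*, the most abundant, was not called either (0.08, adjusted p = 0.235). Of the rod phototransduction genes 4 of 9 tested rose, beside 4.01% of all genes, *Pde6g* among them (1.48, adjusted p = 0.0424, and 0.0744 without KO1), and *Gnb1*, the most abundant, was not called. That count was 2 without Het1, KO1, KO2 or KO3 (6.23%, 6.12%, 3.06% and 8.39% of all genes) and 1 without Het2 or Het3 (1.93% and 2.49%). Of the cone phototransduction genes 7 of 8 tested rose, beside 4.01% of all genes, with *Opn1sw* at 1.99, *Pde6c* at 1.43 and *Gnat2* at 0.80, while *Gnb3* was not called. Without KO1 *Gnat2* was not called (edgeR adjusted p = 0.0732), and without Het1 *Gnb3* was (adjusted p = 0.0395). The cone count was 0 without Het2 or without Het3 (1.93% and 2.49% of all genes) and 2 without KO2 (3.06%). Without KO1 6 of the 16 regulators were called (6.12% of all genes). KO1 was the highest of the 7 libraries for 12 of the 16 regulators. This also held for 7 of 9 rod, 6 of 8 cone and 10 of 19 other outer segment genes tested. The share over all genes tested was 18.7%.

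**Figure D5:**
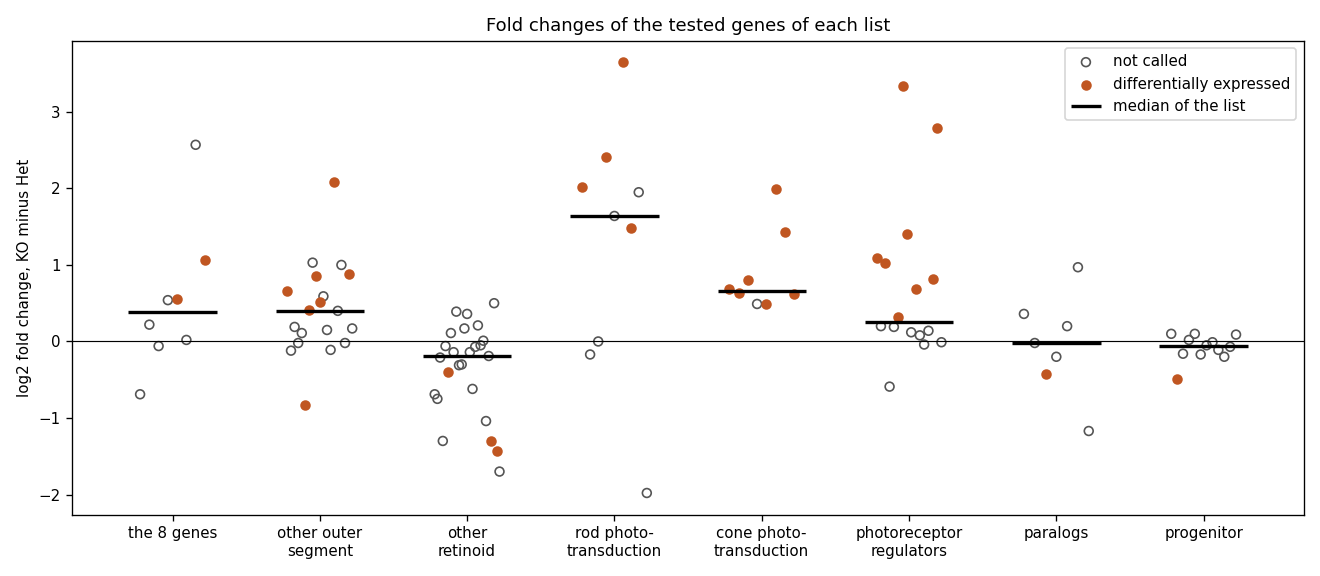
Log2 fold change of KO over Het (each point a gene) for the 8 genes and the related lists, for the tested genes of each list, with called genes in orange and a bar at the median. The outer segment, regulator and phototransduction lists lie mostly above 0, and the retinoid list has its median below 0, at -0.19, or -0.06 without Het1.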

How the data were processed

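Whole E16 retinas were pooled by genotype into 7 libraries and sequenced with a stranded mRNA kit. The authors aligned reads to GRCm38 (mm10) with STAR and GENCODE M10 annotation and deposited raw counts per gene from featureCounts. Strand and multi-mapping settings are not given in the sources used here. The methods name a column kit for RNA and the labels TRIzol.

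Counts were fitted with edgeR 4.0.16 (R 4.3.3) over all 7 libraries after its default filter on low counts and TMM scaling, and KO was compared with Het by the quasi-likelihood test with Benjamini-Hochberg adjustment over 20019 genes. A call needed an adjusted p below 0.05 together with a change past 1.2-fold, the fold limit of the study. DESeq2 1.42.0, other scalings and filters, glmTreat, a replicate block and each library left out were the alternatives. An exact permutation test of 3 against 3 libraries cannot go below p = 0.1 and was not used. The scripts were tested on simulated counts with 200 known changes. At a log2 change of 1, edgeR recovered 82 of 100 and DESeq2 93 of 100. At 1.5 they recovered 93 and 99 of 100. False calls numbered 11 with edgeR and 75 with DESeq2, so a call by DESeq2 alone is weaker. Exon lengths came from GENCODE M21 on the same build, matched by gene ID. They cover the merged exons of all annotated transcripts of a gene, so the order of close levels per kb depends on that choice.

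The genes and the 11 lists beside them were chosen with earlier results of these data known. Named were the 8 genes, their relatives, from each list the 3 called genes of at least 1 CPM with the largest changes and the most abundant gene, the 2 nearest tested genes on each side, and the 3 genes most alike. Genes outside this rule are said to be named after their values were seen. Of those the rule gave, the neighbours and like genes bearing on a described result are printed.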

Additional observations from a re-analysis of the deposited data

How the results depend on the processing

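The count of called genes in KO against Het was 1445. It was 217 with glmTreat, 2221 by adjusted p alone, and 386 to 1674 with single libraries left out, lowest without Het2 and highest without KO3. Of the 8 genes 2 were called, against 0 with glmTreat, 4 with DESeq2, and 0 to 4 with single libraries left out. None was called without Het2, Het3 or KO2, 1 without KO1 and 4 without KO3. With glmTreat the counts were 2 of the other outer segment genes, 1 of the other retinoid genes, 4 of the regulators, 1 of the rod genes, 0 of the cone genes and 0 of the relatives. DESeq2 called 5 of the other retinoid genes, and a minimum of 10 counts in every library left 2 rod genes called. Leaving out single libraries gave 1 to 8 other outer segment genes, 1 to 5 other retinoid genes, 3 to 8 regulators, 1 to 2 rod genes and 0 to 7 cone genes. The cause of these shifts was not tested.

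*Rom1* and *Rbp3* each lost the call in 5 of 15 alternatives, glmTreat among them (adjusted p = 0.119 and 0.260). *Rdh8* gained it in 5 of 14, and had no value under the minimum of 10 counts. Log2 fold changes with single libraries left out ran from -0.02 to 0.78 for *Prph2* and from -0.05 to 0.10 for *Rdh12*, which was -0.03 without KO1. The other 6 genes kept their sign. Of the 24 most alike genes, 15 were shared with a pseudocount of 1 and 18 with 0.1. The replicate numbers shared only a number: same-numbered Het and KO deviations correlated at -0.143, 0.249 and -0.0063. With them as a replicate block 1268 genes were called (6.88% of those tested), and *Rdh8* passed (log2 fold change 2.64, adjusted p = 0.0305). *Rdh8* had at most 52 counts in a library, and its CPM varied by 53.6% (CV) among the KO pools.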

Other observations

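Over all genes tested 7.22% were called by edgeR, 29.7% had an unadjusted p below 0.05, and DESeq2 called 7.04%. Of 10 retinal ganglion cell markers 2 fell and 1 rose in KO by edgeR, 6 were lower and 2 higher at an unadjusted p below 0.05, and DESeq2 called 5 lower and 1 higher. *Isl1*, a transcription factor, fell from 121 ± 3.88 to 75.8 ± 4.11 CPM (SD, n = 3 each, log2 fold change -0.68, edgeR adjusted p = 0.00209), and *Gap43*, a growth cone protein, from 729 ± 21.8 to 546 ± 47.8 CPM (-0.42, adjusted p = 0.0155). *Thy1*, a surface glycoprotein, rose from 24.6 ± 3.71 to 48.9 ± 12.4 CPM (0.99, adjusted p = 0.0248). Of 12 progenitor markers 5 were lower and 0 higher at an unadjusted p below 0.05, and 1 was called by edgeR, a share of 8.33% that is close to that over all genes. It was *Fgf15*, a secreted growth factor, which fell from 752 ± 44.8 to 536 ± 38.0 CPM (-0.49, adjusted p = 0.0110). Of 12 lens markers tested 2 fell by edgeR and 3 by DESeq2, among them *Cryab*, a crystallin and small heat shock protein (-2.73, edgeR adjusted p = 0.0259). Without KO1 only *Cryab* was called by edgeR (-2.41, adjusted p = 0.0493), where 6.12% of all genes were. Of 10 pigmented cell markers and 13 muscle markers tested 0 were called by edgeR. At an unadjusted p below 0.05, 4 and 10 were lower, and DESeq2 called 1 in each list. Without Het1 the median log2 fold change went from -4.73 to 0.08 for the muscle markers, with 8 of 12 positive. For the pigmented cell markers it went from -2.52 to -0.45, with 0 of 10 positive.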
